A study of Homo sapiens with 10 samples.

Results

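The E proteins, their ID inhibitors and the D-type cyclins were followed in a lymphoma cell line with and without the R475C change in the RNA helicase DDX3X. The members were 8 genes, found by their GENCODE release 29 names among the 58721 gene rows of the table: the E proteins TCF3, TCF4 and TCF12, the inhibitors ID1, ID2 and ID3, and the cyclins CCND2 and CCND3. Of these, 7 passed the filter on low counts and entered the test of 17045 genes, and CCND2 did not. All samples came from the line labelled U2392, whose cells had received a Cas9 and guide plasmid that also carries GFP, were sorted for GFP and were grown from single cells. The 4 R475C samples were edited with a double-stranded template for that change, and the 6 wild-type samples with a template of the wild-type sequence. Both templates also changed the PAM and added a SpeI cut site without altering the protein, so the controls carry these edits too. The model is thus a set of edited clones of 1 line, and whether a replicate is a clone of its own or a further culture of a clone is not stated. Each p-value accordingly covers the sample-to-sample spread alone, part of which may be technical. RNA was selected by poly(A) and its reads were counted per gene.

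E proteins are transcription factors of the basic helix-loop-helix family. They bind DNA as dimers at a short palindromic motif, the E-box, and are needed to start and maintain the B-cell programme. ID proteins have the helix-loop-helix dimer surface but lack the basic region that touches DNA, so an E protein held by an ID protein cannot bind. In germinal centre B cells and in Burkitt lymphoma, TCF3 acts upstream of CCND3, and mutations of TCF3, ID3 and CCND3 recur there. D-type cyclins activate the kinases CDK4 and CDK6, which phosphorylate the retinoblastoma protein in G1.

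Total counts ran from 8928539 in R475C replicate 4 to 53779005 in R475C replicate 2. B-cell markers were abundant, summing over 6 genes to 3220 to 4120 CPM in wild-type and 3400 to 4200 CPM in R475C (CPM is a gene's share of the library, scaled by edgeR's TMM factors). Among them MS4A1, which encodes CD20, held 1360 to 2170 CPM. Of 5 T-cell markers CD3D and CD3G had no counts, and none exceeded 1.55 CPM. Of 5 epithelial markers EPCAM alone was above 0.5 CPM, at 16.4 to 37.2 CPM. The 5 myeloid markers summed to at most 1.05 CPM. The 5 fibroblast markers summed to 0.64 to 20.5 CPM in wild-type and 0.155 to 6.52 CPM in R475C, with DCN reaching 14.8 CPM and COL1A2 at 0, and their part in the results was not tested. The samples were split into 2 sets by clustering log2 CPM after the genotype means were removed and without the members. The number of sets was fixed at 2, and removing the genotype means favours sets that cross the genotypes. The first set held replicates 1 and 4 of wild-type and replicates 1 and 3 of R475C, and the second held the other 6 samples. DDX3X itself was at 421 ± 70.5 CPM in wild-type (SD, n = 6) and 932 ± 126 CPM in R475C (SD, n = 4), higher by 1.15 on the log2 scale (SE 0.13) with an adjusted p of 0.00194 by edgeR.

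The E-box is written CANNTG, where N is any base. A form that E proteins favour is CAGCTG, which reads the same on both strands. Another is CAGGTG, whose other strand reads as CACCTG. These forms were searched for in the windows that RefSeq gives for transcript starts (GRCh38.p14, from 250 bases before to 50 bases after each start). Such windows were found for 7 of the 8 members and for CDKN1A, a textbook E-protein target described further on. Neither favoured form was found in the windows of TCF3, TCF4, TCF12, ID1 and ID3, and those of TCF3, ID1 and ID3 held no CANNTG at all. The matches are shown because the E-box is the motif that E proteins bind and that ID proteins keep them from. Capitals mark the motif, and each sequence reads 5′ to 3′ on the strand of the gene.
ID2, chr2:8681839-8681868, plus strand: tatttaccacccCAGCTGggctcgcgcccc
CCND3, chr6:42048908-42048937, minus strand: ccccgccgcccaCACCTGagcctccgtggc
CDKN1A upstream, chr6:36678554-36678583, plus strand: ctcggccaggctCAGCTGgctcggcgctgg
CDKN1A at the start, chr6:36678704-36678733, plus strand: tgcgcCAGCTGaggtgtgagCAGCTGccga
In ID2 the motif began at position -205 from the transcript start, and in CCND3 at -237 from the start farthest upstream of the 3 listed. The CDKN1A window held CAGCTG 3 times, and 0.205% of the 35116 windows held it at least 3 times, a cut equal to the CDKN1A count. CDKN1A was the only gene searched outside the members, and it is also the called gene of the B-cell list described further on. The other genes of that list were not searched, so its matches were not compared with theirs. CAGCTG occurred at least once in 17.9% of all windows, CAGGTG or CACCTG in 20.6%, and any CANNTG, which includes both, in 68.7%, so a single match is common. These matches describe the sequence only and show no binding.

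Among the E proteins, TCF3 was higher in R475C and was the sole member of the 8 past the test. TCF3 (ENSG00000071564.14; chromosome 19, 1609290 to 1652605, minus strand, GRCh38) encodes the E2A proteins E12 and E47, 2 splice forms that gene counts cannot separate. Its level in wild-type replicates 1 to 6 was 386.9, 517.3, 458.7, 468.8, 499.1 and 497.9 CPM. In R475C replicates 1 to 4 it was 663.3, 676.6, 586.2 and 774.3 CPM. All 4 R475C samples lay above all 6 wild-type samples, with the lowest R475C value in replicate 3 and the lowest wild-type value in replicate 1. The means were 471.5 ± 46.6 CPM in wild-type (SD, n = 6) and 675.1 ± 77.2 CPM in R475C (SD, n = 4), a log2 fold change of 0.52 (SE 0.099), or 1.43-fold with a 95% interval of 1.23 to 1.66.

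The quasi-likelihood fit of edgeR, adjusted by Benjamini-Hochberg over all genes, called the difference (adjusted p = 0.0219). With 210 ways to assign the genotypes, the exact two-sided permutation p was 0.00476, its lower limit. In bulk RNA, fewer cells of a type and less RNA per cell cannot be told apart, here and below. Over all 17045 genes 2.46% were called, 1.31% as higher and 1.15% as lower, so 1 call among 7 tested members is to be read against those shares. Groups without overlap were seen in 6.11% of all genes tested, and in 1 of the 7 members. Within the first sample set TCF3 was at 386.9 and 468.8 CPM in wild-type against 586.2 and 663.3 CPM in R475C (log2 fold change 0.56, adjusted p = 0.153). In the second set wild-type ran from 458.7 to 517.3 CPM and R475C was at 676.6 and 774.3 CPM (0.56, adjusted p = 0.0256). The size of the difference was thus alike in both sets, with 2 against 2 samples in the first.

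The call for TCF3 was lost without wild-type replicate 3 (adjusted p = 0.0553) and without R475C replicate 1 (0.06), replicate 2 (0.0597) or replicate 4 (0.0655), the shallowest library and the one with the highest TCF3. It held without any 1 of the other 6 samples. The log2 fold change lay between 0.43 and 0.58 in all 20 alternative fits, of which 14 called the gene. Of the 10 tested genes nearest to TCF3, 5 on each side, none passed, and their log2 fold changes ran from -0.16 to 0.86 with a median of 0.18. Among the 10 nearest tested genes of each other member, the calls were MBOAT2 beside ID2, lower at 5.41 against 17.1 CPM (log2 fold change -1.66, adjusted p = 0.0479), and CRACR2A beside CCND2, higher at 27.6 against 18.6 CPM (0.57, adjusted p = 0.0211).

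TCF4 (ENSG00000196628.16; chromosome 18, 55222331 to 55664787, minus strand) encodes the E protein E2-2 and is the factor that plasmacytoid dendritic cells depend on. Its wild-type levels were 1669, 1398, 1265, 1414, 1330 and 1385 CPM, and its R475C levels were 1454, 1676, 1765 and 1476 CPM. R475C replicates 2 and 3 lay above every wild-type sample and the other 2 lay within the wild-type range, which wild-type replicate 1 stretched upward. The log2 fold change was 0.18 (SE 0.092, 95% interval -0.02 to 0.38) and did not pass (adjusted p = 0.358 by edgeR). Without wild-type replicate 1 it was 0.22, still not called (adjusted p = 0.126).

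TCF12 (ENSG00000140262.17; chromosome 15, 56918623 to 57299281, plus strand) encodes HEB, the E protein best known from T-cell development. It stood at 54.88, 93.8, 72.32, 47.76, 69.67 and 97.14 CPM in wild-type and at 63.0, 80.39, 71.1 and 82.83 CPM in R475C. The wild-type spread, a coefficient of variation of 27.5%, enclosed all R475C samples, and the log2 fold change was 0.03 (SE 0.19, 95% interval -0.38 to 0.45). The 3 lowest values, wild-type replicates 4 and 1 and R475C replicate 1, belonged to the first sample set, and wild-type samples of the second set held 69.67 to 97.14 CPM. R475C replicate 3 of the first set, at 71.1 CPM, lay within that range.

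The ID inhibitors were not called in any direction, and their R475C values lay mostly inside the wild-type range. ID1 (ENSG00000125968.8; chromosome 20, 31605283 to 31606515, plus strand), a target of bone morphogenetic protein signalling, was at 49.73, 88.44, 48.91, 53.75, 52.56 and 62.75 CPM in wild-type. Its R475C values were 65.47, 54.51, 51.27 and 65.05 CPM. All 4 lay inside the wild-type range, whose upper end was wild-type replicate 2 alone. The log2 fold change was -0.0095 (SE 0.17, 95% interval -0.37 to 0.35, adjusted p = 0.987 by edgeR).

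ID2 (ENSG00000115738.9; chromosome 2, 8678845 to 8684453, plus strand), the inhibitor on which innate lymphoid and natural killer cells depend, had wild-type values of 115.2, 86.0, 70.26, 105.4, 70.74 and 86.69 CPM. In R475C it was at 77.04, 67.08, 82.45 and 79.07 CPM, with replicate 2 below every wild-type sample and the others inside the range. The log2 fold change was -0.22 (SE 0.14, 95% interval -0.54 to 0.093, adjusted p = 0.473 by edgeR). The 2 highest values were wild-type replicates 1 and 4, both of the first set. Within that set R475C held 77.04 and 82.45 CPM against 105.4 and 115.2 CPM (log2 fold change -0.46, adjusted p = 0.238), and within the second set the log2 fold change was -0.11 (adjusted p = 0.743).

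ID3 (ENSG00000117318.8; chromosome 1, 23557918 to 23559794, minus strand), the inhibitor whose inactivation frees TCF3 in Burkitt lymphoma, was the most variable of the 7 tested members in R475C. Wild-type samples held 78.08, 126.2, 98.06, 95.28, 106.5 and 91.66 CPM, and R475C samples held 131.1, 58.39, 120.2 and 108.0 CPM. R475C replicate 1 was above and R475C replicate 2 below every wild-type sample. The coefficient of variation was 30.7% in R475C and 16.2% in wild-type, and the log2 fold change of 0.071 (SE 0.20, 95% interval -0.36 to 0.50) did not pass (adjusted p = 0.902 by edgeR). In the first set the log2 fold change was 0.55 (adjusted p = 0.179) and in the second -0.36 (adjusted p = 0.456). The difference between these was not tested.

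**Figure D1:**
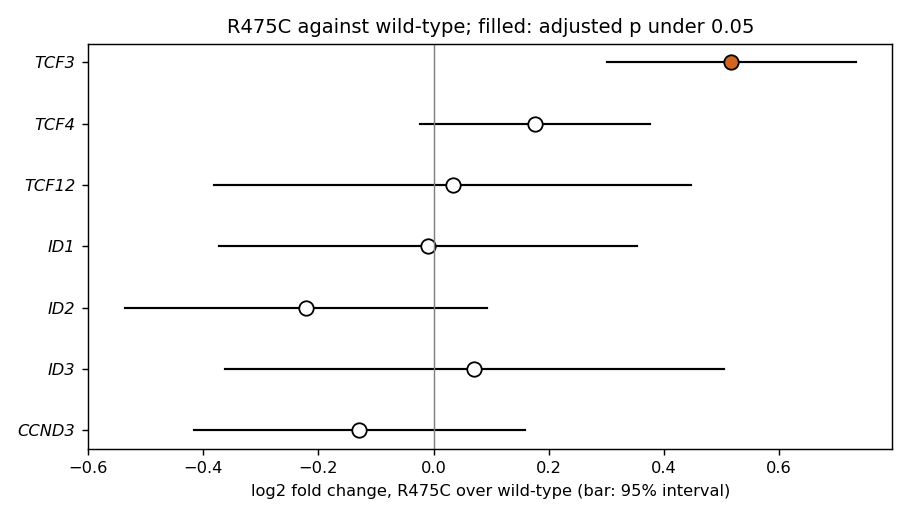
Log2 fold change of R475C over wild-type (horizontal axis) for the 7 members tested, with 95% intervals as bars and a filled point for an adjusted p under 0.05. TCF3 at 0.52 is the filled point, and the intervals of the other 6 include 0.

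Of the D-type cyclins, CCND3 was expressed and CCND2 was close to absent. CCND3 (ENSG00000112576.12; chromosome 6, 41934933 to 42050357, minus strand), the D-type cyclin that dividing germinal centre B cells require, was at 67.02, 72.03, 72.04, 95.52, 73.27 and 69.9 CPM in wild-type. It was at 82.41, 53.23, 71.43 and 67.25 CPM in R475C. Wild-type replicate 4 was the highest sample, R475C replicate 2 the lowest, and the other 8 lay between 67.02 and 82.41 CPM. The log2 fold change was -0.13 (SE 0.13, 95% interval -0.42 to 0.16, adjusted p = 0.677 by edgeR), and it was -0.02 without R475C replicate 2.

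CCND2 (ENSG00000118971.7; chromosome 12, 4273772 to 4305350, plus strand), a cyclin of resting and activated B cells, had 0, 4, 0, 0, 0 and 6 counts in wild-type replicates 1 to 6 and 3, 3, 8 and 4 counts in R475C replicates 1 to 4. In the 4 wild-type samples at 0 counts a level of up to 0.0872 to 0.161 CPM remains possible from 3 counts, which covers counting error only. The highest level was 0.442 CPM, in R475C replicate 4, and at these counts no fold is given. A read-through gene, AC008012.1 (ENSG00000285901.1), shares 989 of the 7157 exon bases of CCND2 on the same strand and runs on into TIGAR. It was at 10.3 to 16 CPM, and TIGAR was at 11.6 to 18.1 CPM. The 6168 exon bases of CCND2 that are not shared gave the counts above or fewer. CCND1, the third D-type cyclin, is given here although it was chosen after its values were seen. It was at 2.88, 3.03, 0.701, 4.67, 1.82 and 3.03 CPM in wild-type and at 15.3, 2.25, 17.1 and 5.3 CPM in R475C (log2 fold change 1.89, SE 0.55, adjusted p = 0.0985 by edgeR). The 2 high samples were the R475C samples of the first set. Within that set the log2 fold change was 2.12 (adjusted p = 0.00328) and within the second 0.74 (adjusted p = 0.547).

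**Figure D2:**
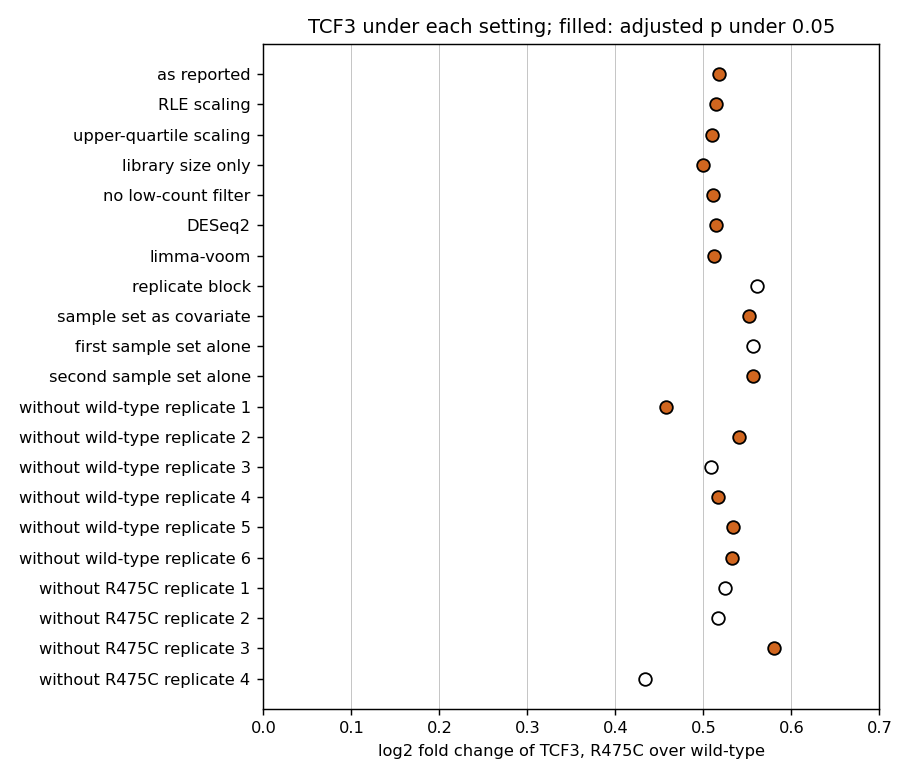
Log2 fold change of TCF3, R475C over wild-type (horizontal axis), as reported and under each of the 20 alternative fits (vertical axis), filled where the adjusted p was under 0.05. The points run from 0.43 to 0.58, and 6 alternatives are not filled.

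Levels of different genes were compared per kilobase of exon, the union of all annotated exons. In wild-type, TCF3 was the highest member at 77.5 ± 7.67 CPM per kilobase (SD, n = 6). It was followed by ID3 at 55.3 ± 8.98, TCF4 at 50.7 ± 4.96, ID1 at 48.1 ± 12.2 and ID2 at 40.4 ± 8.25 CPM per kilobase. CCND3 stood at 12.9 ± 1.78, TCF12 at 7.69 ± 2.11 and CCND2 at 0.00736 ± 0.0115 CPM per kilobase. TCF3 exceeded ID3 in all 10 samples, although their wild-type ranges overlapped. The ranges of neighbours from ID3 to ID2 overlapped as well, with ID3 above TCF4 in 8 of 10 samples and TCF4 above ID1 in 7. The steps from ID2 to CCND3, from CCND3 to TCF12 and from TCF12 to CCND2 were larger than the spread between samples. This order rests in part on the length used, since TCF4 has 27828 bases of annotated exon but a longest transcript of 8343 bases. Per kilobase of longest transcript TCF4 was first, at 169 ± 16.5, and TCF3 next, at 106 ± 10.5 CPM per kilobase. On that length the wild-type ranges of ID2 and CCND3 overlapped, although ID2 exceeded CCND3 in all 10 samples.

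Summed per kilobase, the 3 E protein transcripts were at 129, 145, 129, 133, 137 and 142 CPM in wild-type replicates 1 to 6 and at 168, 180, 167 and 189 CPM in R475C replicates 1 to 4, with no overlap. TCF3 alone made up 49.2 to 59.8% of this sum in wild-type and 57.6 to 67.3% in R475C. The sum, and the ratio built on it, thus carry the TCF3 difference and are no separate result for the family. The 3 ID transcripts summed to 136, 181, 126, 144, 134 and 141 CPM per kilobase in wild-type and to 161, 107, 146 and 149 in R475C, with R475C replicate 2 below every wild-type sample and the other 3 inside the range. The ratio of the E protein to the ID sum was 0.954 ± 0.0846 in wild-type (SD, n = 6; 0.803 to 1.02) and 1.28 ± 0.28 in R475C (SD, n = 4; 1.04 to 1.68), without overlap. The highest ratio was that of R475C replicate 2, the sample with the lowest ID2 and ID3. With longest transcripts as lengths the ratio was 1.39 to 1.86 in wild-type and 1.71 to 2.96 in R475C, and the groups overlapped. These ratios describe transcripts and not proteins. TCF3 relative to TCF4, as a ratio of CPM, was 0.338 ± 0.0543 in wild-type and 0.429 ± 0.0816 in R475C. R475C replicate 3, at 0.332, lay inside the wild-type range.

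**Figure D3:**
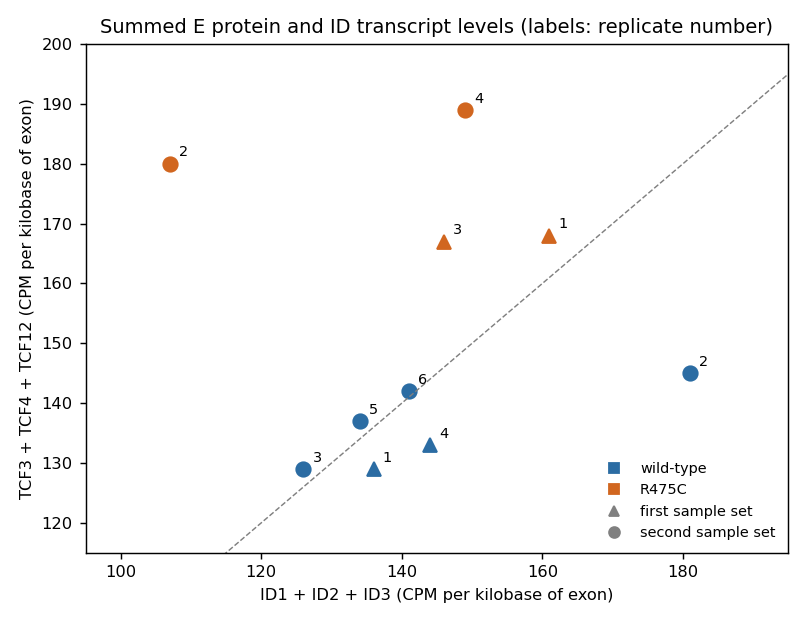
Sum of TCF3, TCF4 and TCF12 (vertical axis) against the sum of ID1, ID2 and ID3 (horizontal axis), both in CPM per kilobase of exon, for each of the 10 samples labelled by replicate number; the dashed line marks equal sums. The R475C samples lie between 167 and 189 on the vertical axis and the wild-type samples between 129 and 145, while both groups spread along the horizontal axis.

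The genes that followed each member most closely over the 10 samples were sought among 10274 protein-coding genes with a mean of at least 5 CPM, by Pearson's r of log2 CPM. The samples share genotype and sample set, so r is a description of these libraries. The highest of 10274 values over 10 samples is also large by selection alone, and no r was tested. Among the genes closest to TCF3 were OTUD5, a deubiquitinase (r = 0.968), and RNF19B, a ubiquitin ligase (0.964). RNF19B was higher in R475C by the same test (log2 fold change 0.85, adjusted p = 0.00583), and OTUD5 was not called (0.24, adjusted p = 0.149). TCF4 was closest to PTBP3 (0.951), an RNA-binding protein, NEMF (0.946) and KDM5A (0.946), a histone demethylase. TCF12 was closest to CRYBG1 (0.951), the cadherin gene CDH2 (0.95) and the kinase gene MAP3K8 (0.942). Among the inhibitors, ID1 was closest to DPAGT1 (0.907), the immediate early gene DUSP1 (0.904) and UCK2 (0.881). ID2 was closest to the death receptor gene FAS (0.946) and PCBD1 (0.939). ID3 was closest to SLC35E3 (0.873), CIITA (0.858), the activator of MHC class II genes, and MAPK11 (0.82). CCND3 was closest to TPRA1 (0.952), SSBP4 (0.951) and PHKG2 (0.938). None of the genes named here as closest to TCF4, TCF12, the ID genes or CCND3 was called. Among the 7 tested members themselves r ran from -0.571 (TCF3 and ID2) to 0.613 (ID3 and CCND3).

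Partners and cofactors of the E proteins, and regulators of the ID proteins, were examined as a list of 20 genes, of which 13 were tested. Of these, 1 rose, none fell and 12 did not pass, where 1.31% of all genes were called higher and 1.15% lower. The median log2 fold change was 0.20 against 0.0018 over all genes. This list and those below were chosen with earlier results of these data known. CREBBP, the acetyltransferase that E proteins recruit as a coactivator, was at 83.46, 70.04, 67.32, 68.13, 76.54 and 62.39 CPM in wild-type and at 111.8, 93.98, 112.3 and 104.7 CPM in R475C. The groups did not overlap (log2 fold change 0.57, SE 0.095, adjusted p = 0.0109 by edgeR), and the call held without any 1 of the 10 samples. It was lost in the first sample set alone (0.57, adjusted p = 0.137). Its paralogue EP300 was at 152.8 ± 18.4 CPM in wild-type (SD, n = 6) and 202.5 ± 5.61 CPM in R475C (SD, n = 4), without overlap (0.41, SE 0.097, adjusted p = 0.0506). EP300 passed without wild-type replicate 1 (adjusted p = 0.0336) or 4 (0.0382), and with the sample set as covariate (0.0208), a covariate drawn from these same data. In all it was called in 4 of the 20 alternative fits, and in neither sample set alone (adjusted p = 0.348 and 0.0605). HES1, a repressor downstream of Notch, was at 22.8 to 49.24 CPM in wild-type and 18.48 to 24.74 CPM in R475C (-0.74, adjusted p = 0.0775), called without wild-type replicate 3 (adjusted p = 0.046) and with the set as covariate (0.0372). Of the 20 alternative fits 3 called HES1, and neither set alone did (adjusted p = 0.121 and 0.204). LMO2, which bridges E proteins and GATA factors, was at 66.82 and 76.14 CPM in the R475C samples of the first set, at 21.89 and 39.65 CPM in those of the second, and at 11.21 to 36.03 CPM in wild-type (1.21, SE 0.37, adjusted p = 0.112). In the first set alone it was called (1.8, adjusted p = 0.00518) and in the second it was not (0.40, adjusted p = 0.669), and the difference between the sets was not tested. The dimer partners TAL1, MSC and MYOD1 had no counts in any sample. ID4, the remaining ID gene, was at 14.6 ± 5.92 CPM in wild-type and 16.8 ± 3.73 CPM in R475C (0.20, adjusted p = 0.78).

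Of 20 B-cell genes known to be bound or driven by E proteins, 17 were tested, 1 fell, none rose and 16 did not pass, against 1.15% called lower over all genes, with a median log2 fold change of -0.0028. The gene that fell was CDKN1A, the cell-cycle inhibitor p21, whose promoter sequences are shown above. It was at 72.75 to 157.3 CPM in wild-type and at 14.87, 33.95, 16.3 and 53.67 CPM in R475C, without overlap (log2 fold change -2.09, SE 0.38, adjusted p = 0.0163 by edgeR). The call was lost without R475C replicate 3 (adjusted p = 0.0557). FOXO1, a transcription factor that acts with E proteins early in the B lineage, was at 57.54 to 74.64 CPM in wild-type and 78.19 to 89.76 CPM in R475C (0.34, SE 0.085, adjusted p = 0.0573), and passed without wild-type replicate 1 (adjusted p = 0.031) and with the set as covariate (0.0366). Only 3 of the 20 alternative fits called FOXO1, and neither set alone did (adjusted p = 0.39 and 0.185). PAX5, which fixes B-cell identity, was between 456.6 and 589.3 CPM in wild-type and between 577.0 and 667.6 CPM in R475C (0.27, adjusted p = 0.129). The chemokine receptor CXCR4 was between 91.61 and 143.1 CPM in wild-type and between 65.12 and 119.0 CPM in R475C (-0.41, adjusted p = 0.278). RAG2, IGLL1 and VPREB1, genes of precursor B cells, were at most at 0.331 CPM and were not tested.

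Genes of bone morphogenetic protein and TGF-beta signalling, placed upstream of ID transcription but not all acting in 1 direction on it, were 25, of which 20 were tested, 1 fell, none rose and 19 did not pass, against the same 1.15% over all genes, with a median log2 fold change of 0.08. BMPR2, the type II receptor, was at 18.1, 21.92, 26.82, 18.57, 37.87 and 40.78 CPM in wild-type and at 10.53, 12.61, 11.62 and 14.47 CPM in R475C. The groups did not overlap (log2 fold change -1.16, SE 0.25, adjusted p = 0.0368 by edgeR), and within the wild-type group replicates 5 and 6 were the highest. The call was lost without any 1 of wild-type replicates 3, 5 and 6 and the 4 R475C samples (adjusted p between 0.0613 and 0.109). With limma-voom it was lost as well (adjusted p = 0.0547). In the first sample set alone the log2 fold change was -0.72 (adjusted p = 0.158). SMAD2, a signal carrier of the TGF-beta branch, differed by 0.32 on the log2 scale (adjusted p = 0.0689), with a call without wild-type replicate 1 (adjusted p = 0.0439) and with the set as covariate (0.0375). Calls for SMAD2 came in 3 of the 20 alternative fits, and in neither set alone (adjusted p = 0.772 and 0.0587). ACVR2A, a receptor, was at 2.009 to 3.798 CPM in wild-type and 3.873 to 6.129 CPM in R475C (0.76, adjusted p = 0.0849). BMP6, a ligand, was at 2.3 to 3.35 CPM in wild-type and 0.151 to 1.99 CPM in R475C (-1.53, adjusted p = 0.126). Of the 20 alternative fits 1 called ACVR2A (DESeq2, adjusted p = 0.0213). For BMP6 2 of them did (DESeq2, adjusted p = 0.0216, and limma-voom, 0.0466). SMAD1, which carries the signal of this branch to ID genes in many cells, did not exceed 0.59 CPM, while SMAD5, which can do the same, was at 146.5 ± 22.3 CPM in wild-type and 153.7 ± 21.2 CPM in R475C.

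Partners of the D-type cyclins, inhibitors of their kinases and the retinoblastoma family made a list of 24, of which 23 were tested, 4 fell, none rose and 19 did not pass, where 1.15% of all genes were called lower. Their median log2 fold change was 0.065. This list too was chosen with earlier results of these data known, so its share of calls is no independent result. The 4 genes that fell comprised 3 inhibitors of cyclin-dependent kinases and the cyclin CCNE2. CDKN1B, which encodes p27, was at 64.87 to 98.43 CPM in wild-type and at 42.96, 49.49, 43.11 and 59.19 CPM in R475C, without overlap (log2 fold change -0.81, SE 0.13, adjusted p = 0.0103 by edgeR), and the call held without any 1 sample but was lost in the first sample set alone (-0.77, adjusted p = 0.0617). CDKN1A, which is also the called gene of the B-cell list, is described above. CDKN2A, which encodes p16 and ARF, was at 144.4 ± 18.7 CPM in wild-type and 100.2 ± 13.1 CPM in R475C with overlapping ranges (-0.53, SE 0.12, adjusted p = 0.0414). Its call remained without wild-type replicate 1 or R475C replicate 4 and was lost without any 1 of the others (adjusted p between 0.068 and 0.133) and in each set alone (adjusted p = 0.284 and 0.0705). CCNE2, a cyclin of S-phase entry, was at 74.41 to 126.9 CPM in wild-type and 54.55 to 71.13 CPM in R475C (-0.63, SE 0.14, adjusted p = 0.0456). Its call was lost without any 1 of wild-type replicates 3, 4 and 5 and the 4 R475C samples (adjusted p between 0.0747 and 0.124). It was also lost in the second set alone (adjusted p = 0.169) and with limma-voom (adjusted p = 0.061). CDK4 and CDK6, the kinases that CCND3 activates, had log2 fold changes of -0.23 (adjusted p = 0.214) and 0.63 (adjusted p = 0.166), and both were named after their values were seen.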

How the data were processed

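The submitters' processing notes name cutadapt 1.10, STAR 2.6.0c and featureCounts. The authors deposited 1 table of whole-number read counts for each gene, without normalization. The sources used here do not give build, annotation or strand setting. The 58721 gene IDs all equal those of GENCODE release 29 (GRCh38), the source of names, positions and lengths. The test was run in R 4.3.3 by edgeR 4.0.16 (TMM, filterByExpr with a minimum count of 10 and total of 15, glmQLFit and glmQLFTest, genotype as the only term, two-sided) with Benjamini-Hochberg adjustment over all 17045 genes (threshold 0.05). A standard error was taken as the log2 value over the root of F. The 95% intervals use the test's total degrees of freedom, the residual ones plus those of edgeR's prior. Log2 CPM used a prior count of 1. Replicates 1 to 6 and 1 to 4 come from the titles, and no 2 samples of a group differed as little as copies of 1 library would. Overlapping genes can share reads where the strand setting is unknown: apart from CCND2 no member overlaps a tested gene.

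Members and lists were chosen with earlier results of these data known. Named were the 8 members, DDX3X, list genes past the test or up to 4 of the smallest p in each list, the 3 genes closest to each member (some are not reported here), tested genes that overlap a member, and called neighbours. Outside this rule, and picked with values in view, are ID4, SMAD1, SMAD5, CDK4, CDK6, CCND1, TIGAR and the untested list genes. The alternatives used library sizes alone or scaling by RLE or the upper quartile, no filter, DESeq2 1.42.0, limma-voom (limma 3.58.1), the replicate number as a block, the sample set as covariate, each set alone and each sample left out.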

Additional observations from a re-analysis of the deposited data

Results flagged for a closer look

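In 4 of 48 sample groups examined, 1 sample lay farther from the rest of its group than Dixon's 95% limit allows, and chance gives about 1 in 20. TCF4 stood at 1669 CPM in wild-type replicate 1 against 1265 to 1414 CPM in the other wild-type samples, and the ratio of TCF3 to TCF4 in that sample was 0.232 against 0.332 to 0.375. ID1 stood at 88.44 CPM in wild-type replicate 2 against 48.91 to 62.75 CPM. CCND3 stood at 95.52 CPM in wild-type replicate 4 against 67.02 to 73.27 CPM.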

How the results depend on the processing

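TCF3 had a log2 fold change of 0.43 to 0.58 when single samples were left out, and it lost its call with the replicate block (0.56, adjusted p = 0.173) and in the first sample set alone (0.56, adjusted p = 0.153). The members called were accordingly 0 with the replicate block and in the first set alone, 0 to 1 with single samples left out, and 1 under each other alternative. None of the other 6 tested members was called in any of the 20 alternatives. The log2 fold changes of ID1, ID3 and TCF12 took both signs among them.

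All genes called were 1150 with DESeq2, 1128 with the sample set as covariate, 0 with the replicate block and 142 to 794 with single samples left out, against 419. Called genes of the list of partners were 4 with DESeq2 and 4 with the set as covariate, and 1 to 2 with single samples left out, against 1. Of the B-cell list they were 2 with DESeq2, with the set as covariate and in each set alone, and 0 to 3 with single samples left out, against 1. Of the signalling list they were 4 with DESeq2, 3 with the set as covariate, 0 and 2 in the first and second set alone and 0 to 2 with single samples left out, against 1. Of the D-cyclin list they were 8 with DESeq2 and with the set as covariate, and 1 to 6 with single samples left out, against 4. With the replicate block each list had 0. With longest transcripts the mean ratio of E protein to ID level was 1.69 in wild-type and 2.18 in R475C, against 0.954 and 1.28. The cause of these changes was not tested.

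The replicate numbers did not pair the samples: deviations of same-numbered samples from their group means correlated between -0.269 and 0.337, and 0 of 4 R475C samples were closest to the wild-type sample of the same number. With the block, edgeR called 0 genes and 1961 had an unadjusted p under 0.05.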

Other observations

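BMP7, a ligand of the pathway that induces ID genes, was present in 1 sample set and nearly absent from the other, whatever the genotype. Its values, like those of BMPR1A, had been seen before the gene was chosen. Both genes were also among those clustered to form the sets, so their split between the sets is not an independent result. The first set held 132.8 and 156.8 CPM in wild-type replicates 1 and 4 and 147.7 and 144.2 CPM in R475C replicates 1 and 3. The other 6 samples held 2.621 to 3.701 CPM in wild-type and 0.2209 and 0.9262 CPM in R475C (log2 fold change within that set -2.22, adjusted p = 0.0436 by edgeR). ID1 was at 49.73, 53.75, 65.47 and 51.27 CPM in the first set and at 48.91 to 88.44 CPM in the second. In the first set ID2 was at 105.4 and 115.2 CPM in wild-type and at 77.04 and 82.45 CPM in R475C. In the second, ID2 was at 70.26 to 86.69 CPM in wild-type and at 67.08 and 79.07 CPM in R475C. ID3 was at 78.08 to 131.1 CPM in the first set and at 58.39 to 126.2 CPM in the second. Whether BMP7 bears on the ID genes was not tested. The type I receptor BMPR1A was at 21.04, 21.4, 29.64 and 25.54 CPM in the first set and at 9.297 to 14.8 CPM in the second.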
